A study of Mus musculus with 12 samples.

Results

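The 10 genes described here, out of 55487 genes with values, carry lysosomal enzymes from the Golgi apparatus to the lysosome. They were taken by gene symbol: the mannose 6-phosphate receptors Igf2r and M6pr, the tag enzymes Gnptab, Gnptg and Nagpa, the sortilin family receptors Sort1 and Sorl1, and the adaptors Gga1, Gga2 and Gga3. Each symbol matched 1 gene, and each of the 10 genes passed the limit on the mean used for testing. The list was chosen by function and with the normalised counts of Igf2r and the other genes in USF-1 KO (KO) against WT mice already known, so the values and calls of that comparison are given for these genes as a description and support nothing. By the study's account, mRNA of the hippocampus was sequenced from 6 WT mice and 6 KO mice, each as 1 library. All mice were of the strain C57Bl/6JRccHsd and aged 3 to 4 months. Both genotypes were bred from heterozygous parents of 1 USF-1-deficient line. By the sample labels the WT group held 4 females and 2 males and the USF-1 KO group 2 females and 4 males, whereas the study's own account of these groups gives the sexes in equal numbers. The labels were used, and the 6 mice labelled female had 16816 to 22913 normalised counts of Xist and at most 3.41 of the Y-linked Ddx3y, where the 6 labelled male had 15.5 to 51.0 and at least 958. Mice are numbered 1 to 6 within each genotype in the order of deposition.

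Soluble lysosomal enzymes receive a mannose 6-phosphate tag on their sugar chains in the Golgi apparatus. GlcNAc-1-phosphotransferase, whose catalytic subunits come from Gnptab and whose gamma subunit comes from Gnptg, adds a covered phosphate, and the uncovering enzyme encoded by Nagpa exposes it. The receptors encoded by Igf2r (cation-independent) and M6pr (cation-dependent) bind the tag, are packed into clathrin carriers by GGA adaptors, release their cargo in the acidic endosome and return. Sortilin and the sortilin-related receptor SORL1 use the same adaptors without needing the tag. The protein of Igf2r also binds insulin-like growth factor 2 at the cell surface and takes it to the lysosome. USF-1 binds the E-box CACGTG.

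Promoter windows from RefSeq (GRCm38.p6) were available for 8 of the 10 genes, and M6pr and Sort1 had no window. A window runs from 250 bases before to 50 bases after a gene start, and CACGTG reads the same on both strands. The letters CACGTG occurred in the windows of 5 of the 8 genes, among them Igf2r, while 11.2% of the 12147 tested genes with a window and 8.09% of all 27025 genes with a window held them. Igf2r and Nagpa held 2 copies each, against 1.14% of the tested genes. All copies lay close to a gene start, and their surroundings are shown because the knocked-out factor reads these letters. Of the 12147 tested genes with a window, 3.67% held CACGTG between 50 bases before and 10 bases after a start. The stretches run 5′ to 3′ on the strand of the gene with CACGTG in capitals. They cover chr17:12769687-12769956 for Igf2r, chr17:25240121-25240200 for Gnptg, chr16:5203993-5204072 for Nagpa, chr9:42124278-42124357 for Sorl1 and chr7:122021193-122021258 for Gga2, all on the reverse strand.
Igf2r: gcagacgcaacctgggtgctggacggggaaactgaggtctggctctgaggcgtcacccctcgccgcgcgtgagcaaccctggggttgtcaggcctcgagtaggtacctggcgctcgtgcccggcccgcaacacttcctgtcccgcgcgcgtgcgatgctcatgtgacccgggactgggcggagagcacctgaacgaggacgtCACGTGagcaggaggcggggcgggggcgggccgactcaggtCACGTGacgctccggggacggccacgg
Gnptg: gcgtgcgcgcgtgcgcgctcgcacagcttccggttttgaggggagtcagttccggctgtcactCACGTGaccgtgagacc
Nagpa: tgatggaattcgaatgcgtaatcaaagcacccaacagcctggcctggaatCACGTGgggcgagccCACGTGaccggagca
Sorl1: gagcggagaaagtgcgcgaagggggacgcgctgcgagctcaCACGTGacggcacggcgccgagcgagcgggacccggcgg
Gga2: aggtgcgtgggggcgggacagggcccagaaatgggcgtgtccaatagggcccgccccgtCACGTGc
In Igf2r the copies began 48 and 7 bases before the RefSeq start, which lies 42 bases upstream of the gene start in the deposited coordinates. In Nagpa they began 10 bases before and at base 6 after the start. Sorl1 held 1 copy that began 19 bases before its first start, and Gga2 held 1 copy that began 1 base before the start. In Gnptg the same copy began at base 4 after 1 annotated start and 21 bases before the other. The windows of Gnptab, Gga1 and Gga3 and of the second start of Sorl1 held no copy. A match is a stretch of letters, and binding was not measured here. Between KO and WT mice the log2 fold change was −0.57 for Igf2r. For the other genes with a copy it was −0.02 (Gnptg), 0.01 (Nagpa), 0.02 (Sorl1) and −0.06 (Gga2). The part of these copies in the level of any gene was not tested.

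**Figure D1:**
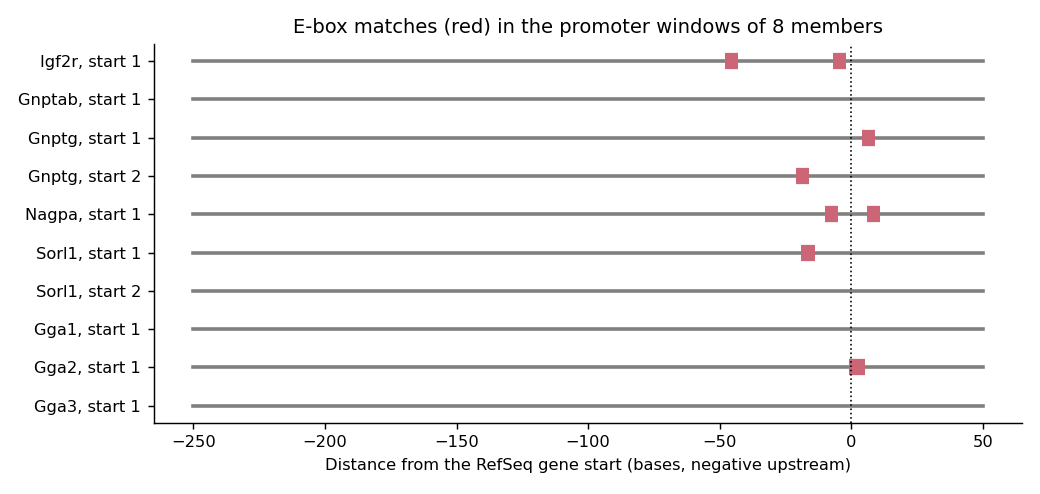
Position of CACGTG in the promoter windows of 8 genes, as distance in bases from each RefSeq gene start (negative upstream). Red marks show matches and grey lines the windows; the 2 marks of Igf2r lie upstream of the start and the windows of Gnptab, Gga1 and Gga3 are empty.

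Between 23369928 and 32091173 reads per library fell on genes in WT mice and 21679622 to 30859179 in KO mice. Values are normalised read counts, that is, reads per gene divided by 1 size factor per library. The targeted gene, Usf1, had 842 to 1583 normalised counts in WT mice, lowest in WT 5, and 117 to 163 in KO mice. None of the 5 markers of hippocampal fields (Prox1, Wfs1, Fibcd1, Grik4 and Zbtb20) was at 0 in any mouse. The same held for 8 choroid plexus markers, so this does not identify the tissue. WT 1 and WT 5 stood apart in the sum of 8 choroid plexus markers, led by Ttr, with 90664 and 236863 normalised counts against 3687 to 6549 in the other 10 mice. The sum of 6 oligodendrocyte markers ran from 83576 to 180879 in WT mice, lowest in WT 4, and from 71972 to 110270 in KO mice. In whole tissue, fewer cells of a type and less RNA per cell cannot be told apart.

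Igf2r had a mean in USF-1 KO mice of 67.3% of the WT level. Igf2r (ENSMUSG00000023830) lies on chromosome 17 from 12682406 to 12769664 on the reverse strand. Its normalised count was 1208 in the lowest WT mouse, with a median of 1293 and a highest value of 1531, and 793 in the lowest USF-1 KO mouse, with a median of 911 and a highest value of 940. The genotypes did not overlap. WT mice averaged 1324 ± 114 (SD, n = 6) and KO mice 891 ± 55.7 (SD, n = 6), which on the log2 scale is a change of −0.57 (SE 0.06, 95% interval −0.70 to −0.44 from limma). As a description, it was past the threshold of 0.05 on the adjusted p in the limma fit across all 18221 genes, where 164 genes (0.900%) were called, 135 lower (0.741%) and 29 higher (0.159%) in KO mice. No other of the 10 genes was past it. On the recovered reads Igf2r was again the 1 gene of the 10 called by edgeR, which called 0.829% of all genes, and by DESeq2, which called 3.38%. Of the 10 genes 1 had an unadjusted p under 0.05, where 13.5% of all genes had one, and 1, Igf2r, was without overlap between the genotypes, where 1.50% of all genes had none. Since the list was drawn up with this comparison known, these calls and counts are no independent evidence, and nothing is read from them. Among the 135 genes called lower in KO mice, 43 had a larger fall than Igf2r.

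The difference was present in both sexes. Among females Igf2r had 1281, 1254, 1305 and 1364 normalised counts in WT mice against 858 and 793 in KO mice, and among males 1531 and 1208 against 908, 940, 913 and 931. With sex as a covariate the log2 fold change was −0.61 (SE 0.06 from limma). WT 5, which had the highest choroid plexus markers, also had the highest Igf2r. Without WT 1 and WT 5, an alternative chosen after the data were seen, the log2 fold change was −0.53. Of the 6 oligodendrocyte markers limma called 0 and DESeq2 called 6, where DESeq2 called 3.38% of all genes. Their log2 fold changes included −0.70 for Mog and −0.59 for Mbp, similar in size to that of Igf2r. The part of oligodendrocytes in the level of Igf2r was not tested. WT 4, whose oligodendrocyte markers lay within the KO range, had 1364 normalised counts of Igf2r, the second highest value of the 12 mice. This is 1 mouse, and nothing is read from it about oligodendrocytes. The sum of 5 microglial markers ran from 5093 to 7359 in WT and from 4821 to 5441 in KO mice, and the part of microglia in the level of Igf2r was not tested.

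**Figure D2:**
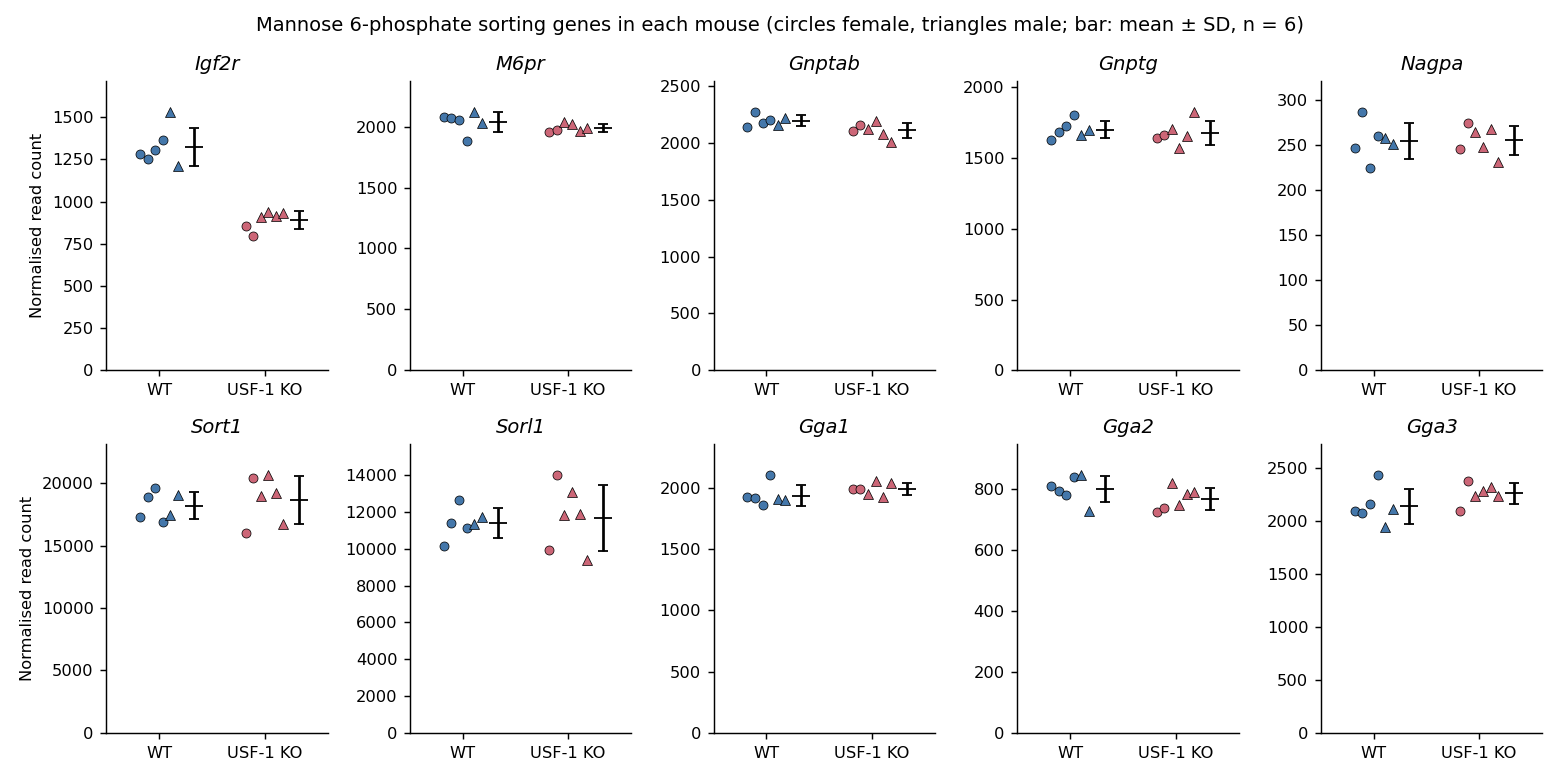
Normalised read counts of the 10 genes in each of 6 WT and 6 KO mice, with the mean and SD beside each group. The genotypes are apart for Igf2r, where KO mice sit between 793 and 940 and WT mice between 1208 and 1531, and overlap for the other 9 genes.

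M6pr, the smaller receptor for the same tag, overlapped between the genotypes. It lies on chromosome 6 from 122308720 to 122317680 and had 1884 normalised counts in the lowest WT mouse, with a median of 2061 and a highest value of 2120. In KO mice the lowest value was 1957, the median 1984 and the highest 2034, so that every KO mouse lay within the WT range. The log2 fold change was −0.03 (SE 0.03, 95% interval −0.11 to 0.04 from limma). The receptors were also set against each other within each mouse. Per kb of exon, the level of Igf2r was 29.1% ± 2.61 (SD, n = 6) of that of M6pr in WT mice, from 26.7% to 32.4%, and 20.05% ± 1.14 (SD, n = 6) in KO mice, from 17.98% to 20.9%. These percentages depend on the length used. Per kb of exon the WT means were 142 for Igf2r and 489 for M6pr, and the KO means 95.7 and 477. Per kb of the longest transcript they were 149 and 685 in WT mice and 100 and 669 in KO mice.

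The genes that make and uncover the tag differed little between the genotypes. Gnptab (chromosome 10, 88379132 to 88447329) had 2138 to 2272 normalised counts in WT mice (median 2189) and 2006 to 2197 in KO mice (median 2115). Of the KO mice 4 of 6 lay below the lowest WT mouse for Gnptab, and its log2 fold change was −0.06 (SE 0.03, 95% interval −0.12 to 0.01 from limma). Gnptg (chromosome 17, 25233331 to 25240124) had 1627 to 1802 normalised counts in WT and 1571 to 1826 in KO mice, with a log2 fold change of −0.02 (SE 0.04). KO 4 held the lowest and KO 6 the highest value of Gnptg among all 12 mice. The end of Gnptg overlaps Unkl on the other strand, and the sources used here do not state whether the counting used strand. Nagpa (chromosome 16, 5195289 to 5204012) had the lowest counts of the 10 genes, 224 to 287 in WT and 232 to 274 in KO mice. On the log2 scale its change was 0.01 (SE 0.07, 95% interval −0.14 to 0.15 from limma).

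The sortilin family receptors had the highest levels and varied together from mouse to mouse. Sort1 encodes sortilin, which also binds progranulin and pro-neurotrophins, and Sorl1 encodes a receptor that sorts the amyloid precursor protein. Sort1 (chromosome 3, 108284082 to 108361511) had 16908 normalised counts in the lowest WT mouse, with a median of 18190 and a highest value of 19623, against 16016, 19129 and 20681 in KO mice. For Sorl1 (chromosome 9, 41964720 to 42124297) these values were 10144, 11373 and 12675 in WT and 9399, 11859 and 14029 in KO mice. In both genes the KO mice spread wider than the WT mice on either side, with KO 1 and KO 6 below every WT mouse and KO 2 and KO 4 above every WT mouse. The log2 fold changes were 0.03 (SE 0.07, 95% interval −0.11 to 0.18) for Sort1 and 0.02 (SE 0.09, 95% interval −0.17 to 0.22) for Sorl1, both from limma.

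With each genotype centred on its own mean, the log2 values of Sort1 and Sorl1 correlated with Pearson's r of 0.908 and Spearman's rho of 0.958 over the 12 mice, the highest of the 45 pairs of the 10 genes. Without KO 1 and KO 6, the mice farthest from the median of Sort1, r was 0.847. Sort1 also followed the sum of the 5 hippocampal field markers (r = 0.946, rho = 0.979, and r = 0.925 without KO 1 and KO 2). For Sorl1 and the same sum r was 0.874 (rho = 0.923, and r = 0.788 without KO 1 and KO 2). Both genes also followed the sum of 4 excitatory neuron markers (Slc17a7, Camk2a, Neurod6 and Grin2b). There r was 0.752 for Sort1 and 0.765 for Sorl1 (0.578 and 0.785 without KO 1 and WT 5). KO 2 and KO 4, with the highest Sort1, had the highest sums of field markers, 29064 and 28248 normalised counts, and the sums of KO 1 and KO 6 were 20419 and 21928. The lowest sum of the 12 mice, 18693, was that of WT 4. These correlations describe 12 hippocampi whose values share the library and the dissection, and the part of the dissection in them was not tested. For Igf2r r was −0.26 with Sort1 and −0.22 with Sorl1, and its highest correlation among the 10 genes was with Gga2 (r = 0.71, rho = 0.650, and r = 0.676 without WT 5 and KO 2). The lowest of the 45 pairs, M6pr and Gga3 (r = −0.756, rho = −0.587), rested on WT 4 and WT 5, without which r was −0.006.

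**Figure D3:**
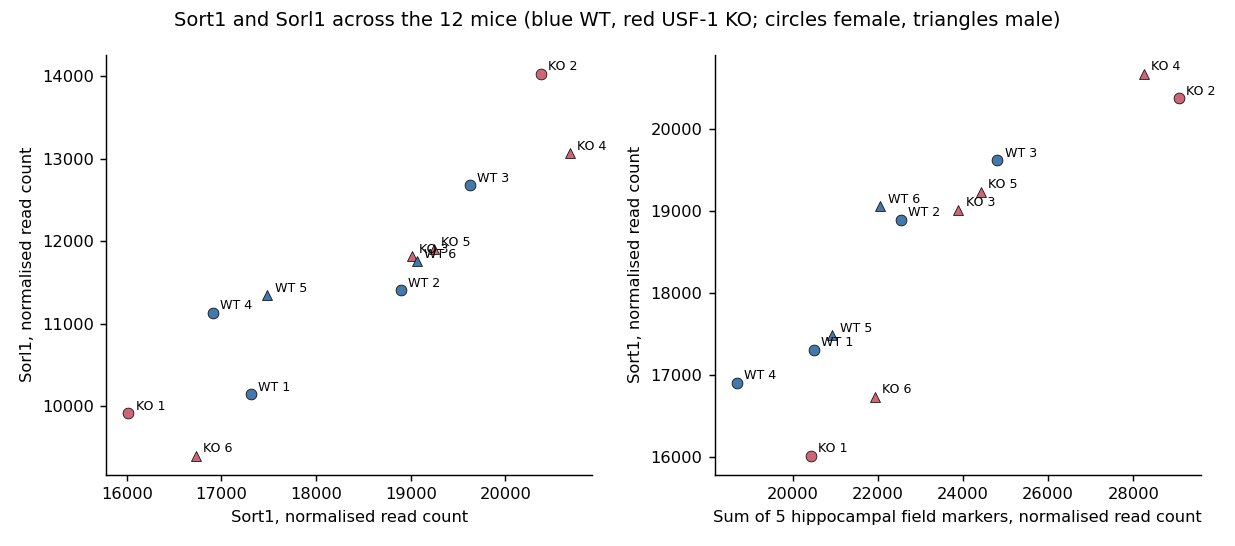
Normalised read counts of Sorl1 against Sort1 (left) and of Sort1 against the sum of 5 hippocampal field markers (right) in the 12 mice, named by genotype and number. Mice of both genotypes lie along 1 line in each panel, with KO 1 and KO 6 at the low end and KO 2 and KO 4 at the high end of Sort1.

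The GGA adaptors, which link the tails of the receptors to clathrin, overlapped between the genotypes. Gga1 (chromosome 15, 78877190 to 78894585) had a median of 1916 normalised counts in WT mice, from 1862 to 2107, and of 1991 in KO mice, from 1926 to 2058. On the log2 scale its change was 0.04 (SE 0.04, 95% interval −0.04 to 0.12 from limma). Gga2 (chromosome 7, 121986722 to 122021222) had 729 to 848 normalised counts in WT and 725 to 820 in KO mice, with a log2 fold change of −0.06 (SE 0.05). Gga3 (chromosome 11, 115584255 to 115604051) had 1940 to 2435 in WT and 2094 to 2381 in KO mice, and its log2 fold change of 0.08 (SE 0.05, 95% interval −0.02 to 0.19 from limma) was the highest of the 10 genes. The start of Gga3 overlaps Mrps7 on the other strand. For the 9 genes other than Igf2r the log2 fold changes thus ran from −0.06 to 0.08, with a median of 0.01, and all of their 95% intervals lay between −0.17 and 0.22. The median over all genes tested was −6e-04.

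**Figure D4:**
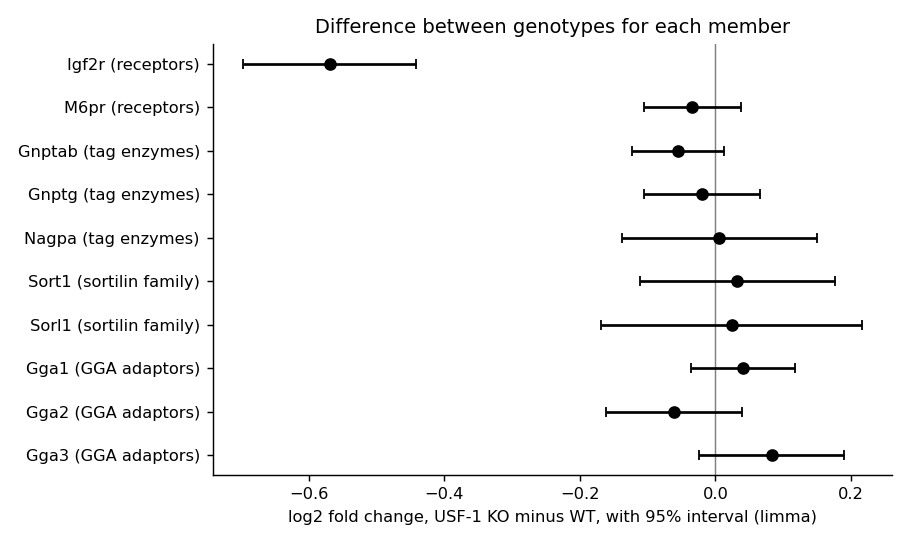
Log2 fold change of USF-1 KO against WT mice for the 10 genes, with 95% intervals from limma, ordered by role. Igf2r lies at −0.57 and the other 9 genes between −0.06 and 0.08.

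Sex was not used to choose the genes, and males were compared with females with genotype as a covariate. Limma called 10 of 18221 genes (0.0549%) in this contrast, and none of the 10 sorting genes. Of these 10 genes 0 had an unadjusted p under 0.05, against 6.45% of all genes. On the recovered reads edgeR (0.0549% of all genes) and DESeq2 (0.241%) called 0 of them as well. Their log2 differences, male minus female, ran from −0.04 (Gga3) to 0.11 (Igf2r), with 95% intervals between −0.22 and 0.24 and a lowest adjusted p of 0.781 from limma. For Igf2r the difference was 0.11 (SE 0.06, 95% interval −0.01 to 0.24). Limma called 0 genes for the interaction of genotype and sex, where 628 genes (3.45%) had an unadjusted p under 0.05, edgeR called 0 and DESeq2 called 5 (0.0274%). None of the 10 genes was among those 628 or those 5. The interaction of Igf2r was 0.10 on the log2 scale (SE 0.12).

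Levels of different genes were compared as normalised counts per kb of the union of exons, averaged over the 12 mice. Sort1 was highest with 2437 ± 200 (SD, n = 12) per kb and Gga2 lowest with 80.3 ± 4.31. From high to low the order was Sort1, Sorl1 (1020), Gnptg (751), Gga1 (522), M6pr (483), Gnptab (366), Gga3 (352), Igf2r (119), Nagpa (108) and Gga2. Of the 9 neighbouring pairs 7 differed beyond their spread (two-sided exact sign-flip permutation test over 12 mice, adjusted p of at most 0.00126). Gnptab and Gga3 did not pass (adjusted p = 0.112, exact permutation test), nor did Igf2r and Nagpa (adjusted p = 0.258, exact permutation test). When the longest transcript gave the length instead, M6pr stood above Gga1, Gga3 above Gnptab and Gga2 above Igf2r, so that the order of these neighbours depends on the length used. The test pooled both genotypes, and Igf2r lay above Nagpa in 7 of the 12 mice. In WT mice the mean level of Igf2r was 142 per kb and that of Nagpa 107, and in KO mice 95.7 and 108. The pooled result for this pair thus mixes 2 opposite orders of the means and does not show similar levels.

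Igf2r is an imprinted gene, expressed in most mouse tissues from the maternal copy, whereas neurons use both copies. The noncoding RNA Airn starts inside Igf2r on the opposite strand and is made from the paternal copy. Airn had 11.1 to 24.7 normalised counts in WT and 23.5 to 36.6 in KO mice, a change of 0.62 on the log2 scale (SE 0.19, limma adjusted p = 0.153) that was not past the threshold. Since the use of strand is not stated, reads of Igf2r and Airn in their overlap cannot be told apart. Of 18 tested genes lying within 1 Mb of Igf2r, limma called 0, with 3 at an unadjusted p under 0.05. Over all genes these shares were 0.900% and 13.5%. EdgeR called 0 of the 18 and DESeq2 called 1, against 0.829% and 3.38% of all genes. Mas1, which overlaps Airn, had a log2 fold change of 0.01 (limma adjusted p = 0.957). Slc22a3 of the same cluster had 16.8 ± 6.64 (SD, n = 6) normalised counts in WT and 19.3 ± 15.7 (SD, n = 6) in KO mice, and the sign of its fitted change turned in 8 of 23 alternatives. Slc22a2 and Plg did not pass the limit on the mean.

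Among other genes of the sorting route, the list held 55 genes, of which 54 were tested. Limma called 2 of the 54 (3.70%), both lower in KO mice, where 0.900% of all genes were called. The median log2 fold change was 0.02, against −6e-04 over all genes. This list was also written with earlier results of these mice known, so its share of called genes is not independent evidence. Ccdc91, whose product binds the ear domain of GGA proteins, had 771 to 938 normalised counts in WT and 630 to 749 in KO mice, which on the log2 scale is a change of −0.29 (SE 0.06, limma adjusted p = 0.0267). Vps26a, a subunit of the retromer that returns receptors to the Golgi apparatus, had 1163 to 1266 in WT and 984 to 1117 in KO mice, which on the log2 scale is a change of −0.22 (SE 0.04, limma adjusted p = 0.0173). For both genes 6 of 6 KO mice lay below every WT mouse, where 1.50% of all genes had no overlap between the genotypes. Both were named because they were called in this comparison, so the lack of overlap adds no support. Without WT 1 limma called 0 of the 54 genes and 64 of all genes, and without WT 4 it called 6 and 515. Over the 24 alternatives the adjusted p of Ccdc91 ran from 3.37e-04 (DESeq2) to 0.0718 (limma without WT 2), with the call lost in 9. That of Vps26a ran from 7.47e-05 (DESeq2) to 0.0927 (limma without WT 1 and WT 5), with the call lost in 2. Of the 54 genes 13 had an unadjusted p under 0.05 in limma, where 13.5% of all genes had one. In KO mice 10 of these were lower and 3 higher. DESeq2 called 5 lower and 1 higher, where it called 3.38% of all genes. Plin3 had the largest fall of the list (log2 fold change −0.46) and Ap1g2 the largest rise (0.45). In limma neither was past the threshold (adjusted p = 0.0831 and 0.0818), and DESeq2 called both (adjusted p = 0.00608 and 0.0103). The retromer core gene Vps35 (log2 fold change 0.01) and the tag-independent receptor gene Scarb2 (−0.13) were not past the threshold (limma adjusted p = 0.959 and 0.259).

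Soluble lysosomal proteins, most of which carry the tag, made a list of 59 genes, of which 58 were tested. Limma called 9 of them (15.5%), all lower in KO mice, where 0.900% of all genes were called. A negative log2 fold change was found for 49 of 58, with a median of −0.18, and for 9152 of all 18221 genes, with a median of −6e-04. The list was written with earlier results for lysosomal genes of these mice known, so its direction is not independent evidence. The called genes were Gaa, Hexa, Manba, Idua, Sgsh and Arsa among 26 glycosidases and sulfatases and Ctsa, Tpp1 and Dpp7 among 15 proteases and peptidases, while 0 of 17 other soluble proteins were called. Gaa, the acid alpha-glucosidase, had 9707 to 11577 normalised counts in WT and 6073 to 7344 in KO mice, which on the log2 scale is a change of −0.63 (SE 0.05, limma adjusted p = 4.51e-05), close in size to that of Igf2r. Dpp7, a dipeptidyl peptidase, had 557 to 662 in WT and 25.1 to 72.1 in KO mice, the largest fall of the list (log2 fold change −3.54, SE 0.21, limma adjusted p = 8.25e-07). Sgsh, a sulfatase of heparan sulfate, had 196 to 281 in WT and 115 to 170 in KO mice (log2 fold change −0.80, SE 0.11, limma adjusted p = 0.00305). Tpp1, a tripeptidyl peptidase, had a log2 fold change of −0.46 (SE 0.05, limma adjusted p = 2.71e-04). Without WT 4 limma called 14 of the 58 genes, while its calls over all genes rose from 164 to 515. DESeq2 on all mice called 20 lower and 1 higher, where it called 616 of all genes (3.38%). Manba and Ctsa were past the threshold by little and lost it in 15 and 14 of 24 alternatives. Of the 6 oligodendrocyte and 5 microglial markers whose sums are given above limma called 0, with 6 and 4 at an unadjusted p under 0.05, where 13.5% of all genes had one. The part of oligodendrocytes and microglia in the levels of these soluble lysosomal protein genes was not tested.

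**Figure D5:**
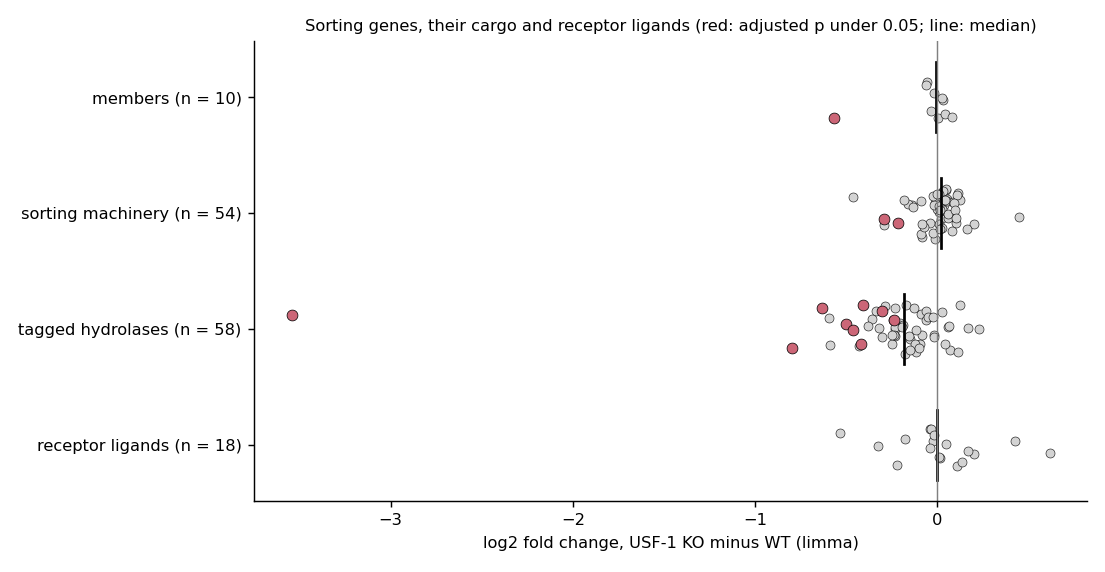
Log2 fold changes of USF-1 KO against WT mice for the 10 members, 54 genes of the sorting machinery, 58 genes of soluble lysosomal proteins and 18 receptor ligands and partners, with medians as lines. The row labelled tagged hydrolases holds the soluble lysosomal proteins, most but not all of which carry the tag. Red points are past the adjusted p of 0.05 in limma: 1, 2, 9 and 0 genes, all lower in KO mice.

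Ligands and partners of the receptors made a list of 21 genes, of which 18 were tested and limma called 0. Of these 5 had an unadjusted p under 0.05, where 13.5% of all genes had one. EdgeR and DESeq2 called 0 of the list, against 0.829% and 3.38% of all genes. Igf2, whose product is degraded after binding the protein of Igf2r, had 93.1 and 221 normalised counts in WT 1 and WT 5, the mice with high choroid plexus markers, and 11.4 to 48.0 in the other 10 mice. On the log2 scale its change was −0.54 (SE 0.62, limma adjusted p = 0.755), −0.03 without WT 5 and 0.41 without WT 1 and WT 5, the latter an alternative chosen after the data were seen. For Igf2 DESeq2 gave −1.27 on all mice. Igf1r, the signalling receptor for the same growth factor, had a log2 fold change of −0.04 (limma adjusted p = 0.875) and Grn, which encodes the sortilin ligand progranulin, of −0.02 (limma adjusted p = 0.873). Lif, a further ligand of the protein of Igf2r, had the highest log2 fold change of the list, 0.62 (SE 0.21, limma adjusted p = 0.202). Its normalised counts were low, 15.1 to 38.2 in WT and 32.55 to 43.7 in KO mice. Only 1 KO mouse lay above every WT mouse for Lif.

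Over all tested genes with a mean of at least 100, the 5 whose log2 values correlated most with those of Igf2r, each genotype centred on its own mean over the 12 mice, included Vasn (r = 0.889), Firre (0.869), Plekhg2 (0.838) and Gosr2 (0.836). Spearman's rho was 0.769, 0.881, 0.776 and 0.888 for these 4 genes. They come from the top of 12676 genes ranked on the same 12 mice. Without WT 5 and KO 2, the mice farthest from the median of Igf2r, r lay between 0.623 (Plekhg2) and 0.877 (Gosr2).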

How the data were processed

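RNA of 12 hippocampi was sequenced by the authors, with 1 library per mouse, and the study describes this as mRNA sequencing. As deposited, the signal is the number of reads on a gene over a size factor that the authors set for each library with DESeq2, after alignment with the Illumina Basespace RNA-Seq app and STAR. The submitters' processing notes name STAR 2.5.0a, edgeR 3.22.2 and mm10. The read counter and the use of strand are not given in the sources used here. Dividing a library by its smallest step gave whole reads for 100% of its values (tolerance 0.01 reads), and these recovered reads were used for edgeR and DESeq2. Coordinates and exon lengths are those of GENCODE M21 (GRCm38), which matched 98.8% of the deposited genes.

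The comparison was limma 3.58.1 (R 4.3.3) on log2(normalised count + 1), fitted two-sided with a trend of the variance on the mean and with Benjamini-Hochberg adjustment over genes with a mean of at least 10, which is the scale of every log2 fold change. Genotype was the only term, and all 12 mice entered. With 6 mice per group the p-values measure the spread between mice. Alternatives were pseudocounts of 0.5 and 5, other limits on the mean, quantile normalisation, an equal total for every library, no trend, sex as a covariate, edgeR 4.0.16 (quasi-likelihood, TMM) and DESeq2 1.42.0 on recovered reads, each mouse left out in turn and a threshold of 0.1. Chi-square over its degrees of freedom was at least 4.25 for every pair of libraries, so that none was another library sequenced again. This value cannot tell whether 2 libraries were made from the same mouse. The members, lists and tests were chosen with earlier results of these data known. Genes were named when they were members, called genes of the lists, tested ligands or genes of the Igf2r cluster, or among the 5 most like Igf2r, and some of these are not reported here. Vps35, Scarb2, Plin3, Ap1g2 and the neighbours overlapping a member were chosen after their values were seen. The marker lists of astrocytes, endothelium, oligodendrocyte precursors and inhibitory neurons had 0 called genes of 17 in limma. They held 2 genes with an unadjusted p under 0.05, where 13.5% of all genes had one, and are not described further. Plots were drawn with matplotlib 3.10.9.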

Additional observations from a re-analysis of the deposited data

Results flagged for a closer look

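Within the 94 groups of 6 mice examined for 47 named genes, the highest or lowest mouse stood apart in 6 by Dixon's criterion, where chance flags about 1 in 20 groups, or 4.7. Among the 10 sorting genes this held for Gga1 alone, where WT 4 had 2107 normalised counts and the remaining WT mice 1862 to 1926. WT 5 was the mouse that stood apart in 3 of the 6. It had 842 normalised counts of Usf1, where the remaining WT mice had 1425 to 1583, 333 of Vasn against 173 to 231, and 2779 of Firre against 2394 to 2521. Vasn and Firre were named for their correlation with Igf2r, whose value was also highest in WT 5. Idua had 392 normalised counts in KO 5 and 351 to 364 in the remaining KO mice, and Ntf3 had 141 in KO 1 against 167 to 181.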

How the results depend on the processing

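No paired analysis was possible because the labels give no number shared between the genotypes. The log2 fold change of Igf2r was −0.61 to −0.53 over 24 alternatives, in each of which it was the 1 member past the threshold. This describes values that were known when the genes were chosen and is no independent support. The sign of the log2 fold change of Nagpa, Sort1 and Sorl1 turned in 5, 1 and 4 of 24. The number of genes called between genotypes, 164, was 109 without the trend, 616 with DESeq2, 343 at a threshold of 0.1, 98 with sex as a covariate and 59 without WT 1 and WT 5 (chosen after seeing the data), and 64 (without WT 1) to 515 (without WT 4) with single mice left out. In the same order the 2 sorting machinery genes became 1, 6, 5, 1 and 1, with 0 (without WT 1) to 6 (without WT 4) for single mice. The 9 called genes of soluble lysosomal proteins became 21 with DESeq2 and 14 at 0.1, with 7 (without WT 1) to 14 (without WT 4). The 0 neighbours of Igf2r became 1 with DESeq2 and at 0.1, with 0 to 1, and the 10 genes called between the sexes became 44 with DESeq2, with 10 to 17 (without KO 1). The cause of these shifts was not tested, apart from the threshold. The order of levels had 7 or 8 differing neighbours in its alternatives. With 6 mice per group, the widest 95% interval of a member, that of Sorl1, left room for changes between −0.17 and 0.22.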
